A study of Homo sapiens with 45 samples.

Results

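The 8 rows described here are mature microRNA (miRNA) entries that were abundant or shifted in whole-cell RNA of HCT116 cells, several of them resembling spacers of ribosomal RNA (rRNA): hsa-miR-663a-5p, hsa-miR-663a-3p, hsa-miR-3648-5p, hsa-miR-3648-3p, hsa-miR-4497, hsa-miR-4508, hsa-miR-3195 and hsa-miR-1469, written below without the species prefix. They are 8 of 2817 mature miRNA rows and of 166777 rows in all. They were picked by name from their whole-cell levels, so those levels are given as a description, with no test. Tests are given for the pulldowns, although the pulldown results were also known when the rows were grouped. HCT116 is an epithelial line from a human colorectal carcinoma. Small RNA was sequenced from 45 libraries in 15 groups of 3, labelled as biological replicates.

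Whole-cell RNA was taken from 8 lines: wild type (WT), and knockouts (KO) labelled as lacking both alleles of AGO1, of AGO2, of AGO1 plus AGO2 (AGO1/2 KO), of AGO1 through AGO3 (AGO1/2/3 KO), of TNRC6A, of TNRC6B, or of both TNRC6 genes (TNRC6A/B KO). Immunoprecipitation (IP) used 3 antibodies. An AGO1 antibody was used on WT and AGO1 KO cells, and an AGO2 antibody on WT and on AGO2 KO cells. A pan-AGO antibody was used on WT cells and on the double and triple AGO knockouts. By the labels, each KO pulldown therefore lacks the antibody's target or, with the pan-AGO antibody, some of its targets. AGO4 is not among the disrupted genes. Whether other AGO proteins remained in a KO pulldown was not tested. The sources used here do not say whether a knockout line is 1 clone. The question addressed by the series is how loss of the core RNA interference factors alters miRNA profiles.

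A miRNA is cut from a hairpin transcript and becomes active only when an Argonaute (AGO) protein holds it as a guide strand, which pairs through its seed with messenger RNAs. TNRC6 proteins bind AGO and recruit the machinery that silences those messenger RNAs. Small RNA libraries also hold fragments of much more abundant RNAs, above all of rRNA. The 28S, 18S and 5.8S rRNAs are cut from a single 45S precursor whose spacers are discarded, whereas 5S rRNA is transcribed from genes of its own. A read from a spacer that matches a listed miRNA can be counted in the miRNA's row.

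RefSeq (GRCh38.p14) held a mature sequence for 4 of the 8 rows. They are shown to let the base composition be seen beside let-7a-5p, a canonical guide strand; each is written 5′ to 3′, with the seed, bases 2 to 8, in capitals.
miR-663a-5p: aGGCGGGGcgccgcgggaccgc
miR-3648-5p: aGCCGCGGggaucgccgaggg
miR-4497: cUCCGGGAcggcugggc
miR-1469: cUCGGCGCggggcgcgggcucc
let-7a-5p: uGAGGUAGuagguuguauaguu
No pair of the 4 member sequences shares a seed. Their G and C content ran from 81.0% to 90.9%, against a median of 52.2% over the 2367 mature miRNA rows with a sequence, and 36.4% in let-7a-5p. Including these 4, 2.83% of rows with a sequence had at least the lowest of these values, and 63 of those rows were not members.

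For miR-4508 and miR-3195 the hairpin is shown, in lower case, because a mature sequence was not matched. The hairpin of miR-4508 has 80% G and C, and that of miR-3195 has 92.9%. The arms miR-663a-3p and miR-3648-3p are named only.
miR-4508 hairpin: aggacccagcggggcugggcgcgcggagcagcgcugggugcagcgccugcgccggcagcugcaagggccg
miR-3195 hairpin: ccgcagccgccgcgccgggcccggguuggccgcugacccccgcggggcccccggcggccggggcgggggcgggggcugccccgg

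The hairpins lie in unlike places. MIR3648-1, at chr21:8208473-8208652, lies inside the 45S gene RNA45SN2, at bases 2486 to 2665 of its 13315, upstream of the 18S sequence that starts at base 3644. A copy of that hairpin, MIR3648-2, lies at chr21:8986999-8987178 outside an annotated 45S gene. MIR663A, at chr20:26208186-26208278, lies in an exon of its host gene MIR663AHG. MIR4497, at chr12:109833348-109833436, lies antisense to an untranslated region of TRPV4, and MIR1469, at chr15:96333261-96333307, lies within NR2F2, in an untranslated region of 1 of the 5 transcripts it overlaps. MIR3195, at chr20:62064802-62064885, is antisense to a coding exon of TAF4, a subunit of the transcription factor TFIID. MIR4508, at chr15:23562062-23562131, overlaps no annotated gene. Because miR-3648 has 2 hairpin copies and the sources used here do not give the authors' treatment of reads that match several places, the split of reads among near-identical rows is uncertain.

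Libraries held 1783590 to 9860313 counts. Values below are counts per 1000000 (CPM) of all counted RNAs unless another scale is named. The 4 rRNA rows took 15.02% to 56.4% of whole-cell counts and 1.79% to 22.9% of pulldown counts, and mature miRNA rows took 1.46% to 13.2% and 1.44% to 82.3%. The summed level of 5 epithelial miRNAs was 638 to 805 CPM in the WT whole-cell libraries, against 82.6 to 85.6 CPM for 10 miRNAs typical of blood, liver, muscle, vessel or nerve. The epithelial sum was lowest, 8.21 CPM, in a library of AGO1/2/3 KO cells, in which miR-200c-3p averaged 2.57 ± 0.964 CPM (SD, n = 3). A pair of libraries stood apart from their replicates in these rows, replicate 1 of the AGO1 IP from WT cells and replicate 3 of the pan-AGO IP from WT cells. Calls of members on the scale of all counted RNAs are given with and without them. So are the sums in the text, and the ratios there between arms or to whole-cell RNA. The ratios of pooled counts and the correlations over group means are given only with them.

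In WT whole-cell RNA the 8 rows together made up 626 ± 108 CPM (SD, n = 3), or 1.21% ± 0.321 of mature miRNA counts. miR-663a-5p, whose guide has been reported in human cells to act on JUNB, stood at 149, 146 and 165 CPM. miR-3648-5p stood at 48.8, 50.7 and 55.6 CPM and miR-3648-3p at 58.8, 56.4 and 69.4 CPM. The replicates of these 3 rows lay close together. miR-3195, at 166, 117 and 205 CPM, and miR-1469, at 137, 99.1 and 179 CPM, varied more, with replicate 2 lowest in both. miR-4497 was at 36.5, 23.1 and 33.0 CPM, and miR-4508 at 29.6, 22.7 and 25.0 CPM. miR-663a-3p was far below its partner arm, at 2.56, 1.958 and 1.46 CPM.

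In whole-cell RNA of the AGO knockout lines, rows lay above, below or within the range of the WT libraries, depending on the row and the line. In AGO1 KO cells miR-663a-5p stood at 441, 382 and 379 CPM and miR-3648-5p at 148, 121 and 140 CPM, 2.61 and 2.64 times their WT means. Every AGO1 KO library was above every WT library for both rows. Among 766 rows with at least 10 CPM on average in whole-cell RNA, a level that miR-663a-3p did not reach, 17.5% lay above WT in this way in AGO1 KO cells and 44.0% below it. miR-3195 and miR-3648-3p lay below it, at 98.6 ± 12.1 and 38.3 ± 7.17 CPM. The other 4 rows overlapped WT. In bulk RNA, fewer cells carrying an RNA and less of it per cell cannot be told apart, and a share of the counts also moves when other RNAs do.

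In AGO2 KO cells all 8 rows overlapped WT, where 14.0% of the 766 rows lay above it and 18.8% below it. miR-663a-5p spread widely there, at 244, 148 and 381 CPM. In AGO1/2 KO cells 5 of the 8 rows lay wholly below WT, against 31.3% of the 766 rows. miR-4497 was at 9.04, 9.19 and 13.1 CPM, miR-3195 at 61.6, 56.2 and 41.6 CPM and miR-663a-5p at 123, 104 and 109 CPM. miR-1469 moved the other way, with 184, 194 and 236 CPM, all above WT, as did 19.7% of the 766 rows. In AGO1/2/3 KO cells 6 of the 8 rows lay below WT, against 32.0% of the 766 rows, with miR-663a-5p at 45.1, 53.4 and 61.4 CPM; none of the 8 lay above it, where 26.9% of the 766 rows did. miR-1469, at 77.0, 210 and 231 CPM, and miR-663a-3p overlapped WT.

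Several of these positions changed when levels were taken per 1000000 counts of the rRNA rows, which took 36.3% of counts in WT and 18.8% in AGO1/2/3 KO cells. In AGO1/2/3 KO cells none of the 8 rows then lay below WT, against 19.5% of the 766 rows, and miR-663a-3p lay above it, as 50% did. In AGO1/2 KO cells 3 rows lay below WT, miR-3195, miR-4497 and miR-3648-5p, against 21.9% of the 766 rows, and miR-1469 remained above it, as 35.9% did. miR-663a-5p, at 434, 365 and 394 on that scale, overlapped its WT values of 404, 369 and 511. In AGO1 KO cells 4 rows lay above WT and none below, against 28.2% and 22.8% of the 766 rows, with miR-663a-5p at 3.66 times its WT mean. In AGO2 KO cells 3 rows lay above WT, miR-663a-5p, miR-4497 and miR-4508, and none below, against 20.2% and 8.75%. The TNRC6 knockouts kept 7 of the 8 rows below WT on that scale in each line. In the TNRC6A, TNRC6B and TNRC6A/B lines 67.2%, 68.4% and 64.8% of the 766 rows lay below it too. miR-663a-3p lay above WT in each line, as 20.1%, 18.5% and 21.9% of the 766 rows did.

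The TNRC6 knockout lines had the widest whole-cell differences from WT. Titles of the WT and AGO knockout whole-cell libraries carry the prefix IN, and those of the TNRC6 lines do not. No WT library has a title of the TNRC6 form. Genotype and any other difference between these sets of samples therefore cannot be told apart. The 8 rows summed to 45.6 ± 13.0 CPM where TNRC6A was lost, to 44.4 ± 9.82 CPM where TNRC6B was lost and to 58.6 ± 15.6 CPM where both were lost (SD, n = 3 each), against 626 in WT. miR-663a-5p was at 9.72, 15.7 and 8.68 CPM in the TNRC6A line, 10.5, 10.3 and 7.12 in the TNRC6B line, and 16.4, 16.4 and 11.9 in the double knockout. miR-3195 averaged 5.23, 6.80 and 8.11 CPM in the same 3 groups and miR-1469 averaged 4.79, 6.24 and 7.75 CPM. In each of the 3 lines 7 of the 8 rows lay wholly below WT. The share of the 766 rows that did so was 61.4%, 62.3% and 60.2%, so most rows of the libraries shared that position.

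miR-663a-3p was the exception. It was at 5.18, 13.2 and 9.23 CPM in the TNRC6A line, 6.45, 5.05 and 5.34 in the TNRC6B line, and 8.33, 11.4 and 5.45 in the double knockout, above all WT libraries in each line, as 27.8%, 28.6% and 28.1% of the 766 rows were. The counts of the 5p arm were 77.2 times those of the 3p arm in WT whole-cell RNA and 294 times in AGO1 KO, but 1.18, 1.70 and 1.87 times in the 3 TNRC6 lines. The 28S row was also higher in those lines, at 313504 ± 19079, 302578 ± 26347 and 289471 ± 33573 CPM against 226713 ± 17059 in WT. The share of mature miRNA counts was higher as well, at 9.32%, 7.87% and 10.1% against 5.25% in WT. As counts per 1000000 of the rRNA rows alone, the 8 rows summed to 83.7 ± 21.2, 82.7 ± 16.3 and 114 ± 23.2, against 1757 ± 485 in WT. The part these library-wide shifts play in the members' levels was not tested.

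**Figure D1:**
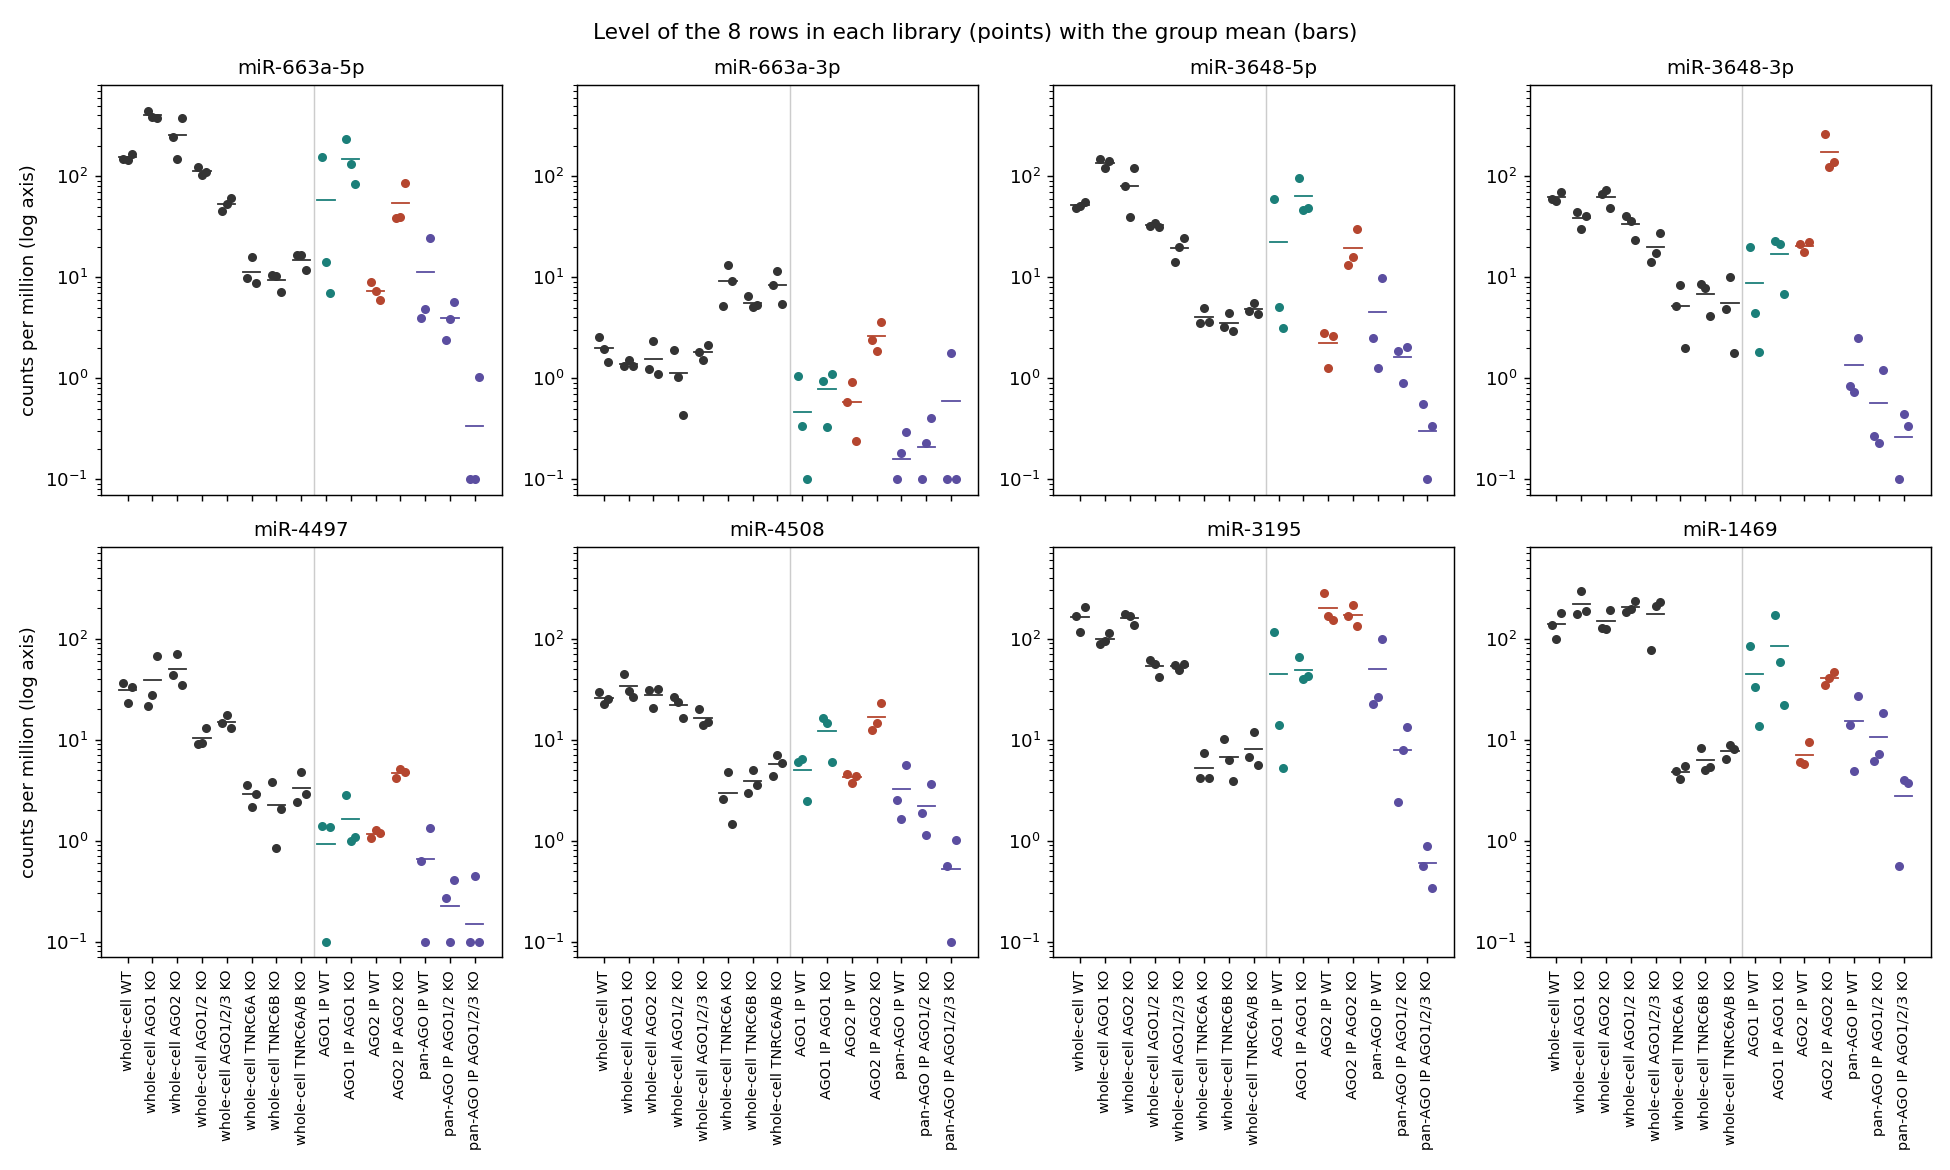
Level of each of the 8 rows in CPM (vertical log axis) in the 45 libraries (points) with the mean of each group (bars), the 15 groups along the horizontal axis; black marks whole-cell RNA, green the AGO1 IP, red the AGO2 IP and purple the pan-AGO IP, and values under 0.1 are drawn at 0.1. For miR-663a-5p the TNRC6 knockouts sit between 7.12 and 16.4 CPM, and for miR-3195 the WT AGO2 IP libraries, at 154 to 281 CPM, reach the whole-cell level.

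miR-663a-5p and miR-3648-5p, from hairpins on different chromosomes, kept a similar proportion in whole-cell RNA and pulldowns. In the 38 libraries with at least 10 counts of both, there were 1.58 to 5.73 counts of miR-663a-5p for each of miR-3648-5p, with a median of 2.90. Over the same libraries the level of miR-663a-5p itself ran from 7.12 to 441 CPM in whole-cell RNA. The summed counts of WT whole-cell, AGO1 KO and TNRC6A/B KO groups gave 2.97, 2.95 and 3.04, and those of the WT and KO AGO2 IP gave 3.32 and 2.80. Over the 15 group means, Pearson's r of log2(CPM + 1) between them was 0.99; the points share libraries and totals, and no p is given.

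**Figure D2:**
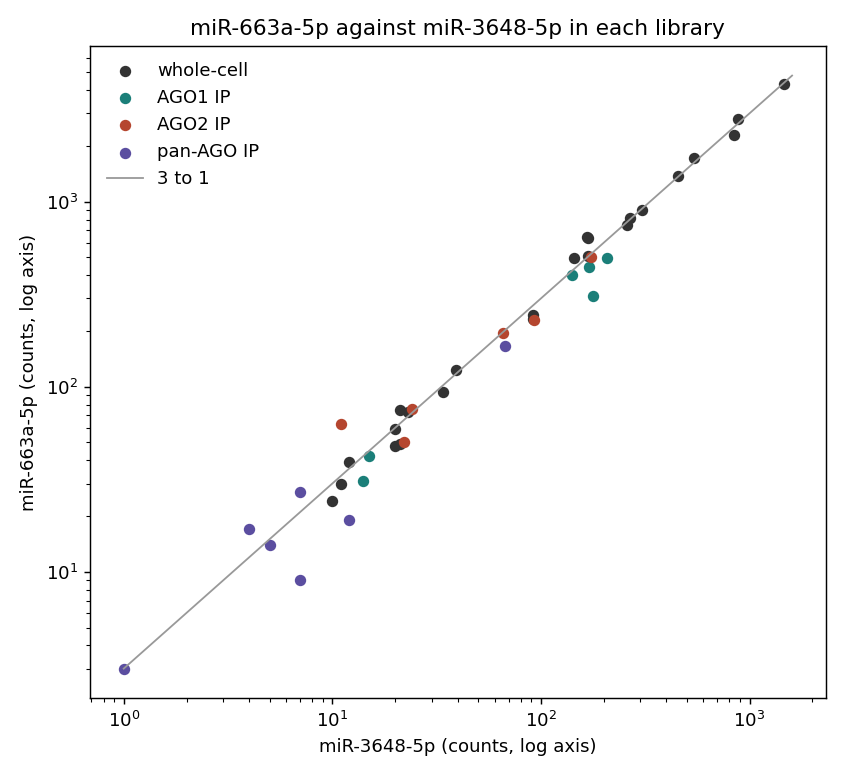
Counts of miR-663a-5p (vertical log axis) against counts of miR-3648-5p (horizontal log axis) in each library with at least 1 count of both, coloured by RNA source; the line marks 3 counts to 1. Whole-cell and pulldown libraries fall along the same line, with a median of 2.90 counts of miR-663a-5p per count of miR-3648-5p.

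The 2 arms of miR-3648 did not keep a proportion. There were 0.839 counts of 5p for each of 3p in WT whole-cell RNA, 3.54 in AGO1 KO, 3.44 in the WT pan-AGO IP and 2.55 in the WT AGO1 IP (2.38 and 1.38 without the library of each that stood apart), but 0.108 in the WT AGO2 IP and 0.117 in the AGO2 IP of AGO2 KO cells. The 3p arm was thus the larger share of miR-3648 in the AGO2 antibody's libraries whether or not the target was present. By smaller margins, its group mean was also above that of 5p in WT whole-cell RNA and in each TNRC6 line. Those of the TNRC6A, TNRC6B and TNRC6A/B lines were 5.19 against 4.05, 6.85 against 3.54 and 5.54 against 4.83 CPM. Its highest level of any group, 173 ± 75.3 CPM (SD, n = 3), was in the AGO2 IP of AGO2 KO cells.

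Likeness of pattern over the 15 group means was ranked among rows of at least 10 CPM on average, with members and Ensembl transcripts left out. In that ranking the rows most like miR-663a-5p were miR-10396b-3p (r = 0.96), miR-4530 (r = 0.94) and a glutamate tRNA, tRNA-Glu-TTC-3-1 (r = 0.94). Among the members, miR-663a-5p had r = 0.99 with miR-3648-5p and r = 0.95 with miR-4508. For miR-3648-5p they were miR-10396b-3p (r = 0.96), miR-4530 (r = 0.95) and miR-6729-3p (r = 0.94). The hairpin MIR10396B, at chr21:8436324-8436374, lies at bases 3103 to 3153 of the 45S gene RNA45SN1, whose 18S sequence starts at base 3655. For miR-3648-3p the nearest was miR-6869-5p (r = 0.98), followed by miR-718 (r = 0.93) and miR-3196 (r = 0.91). miR-4508 was most like miR-3196 and miR-3960 (r = 0.98 each) and a threonine tRNA, tRNA-Thr-CGT-3-1 (r = 0.97).

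The 3 nearest rows of miR-4497 and of miR-1469 were all tRNAs, with r from 0.97 to 0.98. miR-663a-3p was most like the small nucleolar RNAs U8 (r = 0.97) and ACA21 (r = 0.96) and miR-6088 (r = 0.97), and its r with miR-663a-5p was 0.01. miR-3195 had the weakest likeness of the 8, with cysteine tRNAs (r = 0.85 and 0.84) and miR-636-3p (r = 0.84). With 28S the r of the members ran from 0.26 for miR-3195 to 0.77 for miR-663a-3p, and with 5S from 0.46 for miR-663a-3p to 0.85 for miR-3648-3p. These r are a description over points that share libraries and totals. Among the 14 pairs of neighbours in each row's order of group means, 9 to 13 overlapped in their libraries, so the order of most groups is not resolved.

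The WT pulldowns held less of the members than whole-cell RNA did, except for miR-3195 in the AGO2 IP. In WT cells the AGO2 IP held 0.0481 times the whole-cell mean of miR-663a-5p, 0.0432 times that of miR-3648-5p, 0.0379 times that of miR-4497 and 0.0510 times that of miR-1469. The same ratio was 0.143 for 28S, 0.0857 for 18S, 0.130 for 5.8S and 0.184 for 5S. For miR-4508, miR-663a-3p and miR-3648-3p it was 0.164, 0.293 and 0.335. These are ratios of CPM within a row, given without a test because the whole-cell levels chose the rows.

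The 10 guide strands used as a reference, among them let-7a-5p, miR-21-5p and miR-200c-3p, lay on the other side: their ratios ran from 9.62 to 113 in the WT AGO2 IP, from 4.10 to 94.1 in the WT pan-AGO IP and from 2.30 to 18.7 in the WT AGO1 IP. miR-3195 was at 281, 166 and 154 CPM in the WT AGO2 IP, 1.23 times its whole-cell mean and above the other members and the rRNA rows on this ratio, but below all 10 guides. Its ratio was 0.306 in the WT pan-AGO IP, where it stood at 22.7, 26.5 and 99.6 CPM, and 0.275 in the WT AGO1 IP, where it stood at 115, 13.9 and 5.19 CPM. A single library carried each mean, and without it the ratios were 0.152 and 0.0589. Without the same libraries the ratios of the 10 guides ran from 3.15 to 73.6 in the pan-AGO IP and from 0.972, for miR-92a-3p, to 14.9 in the AGO1 IP.

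**Figure D3:**
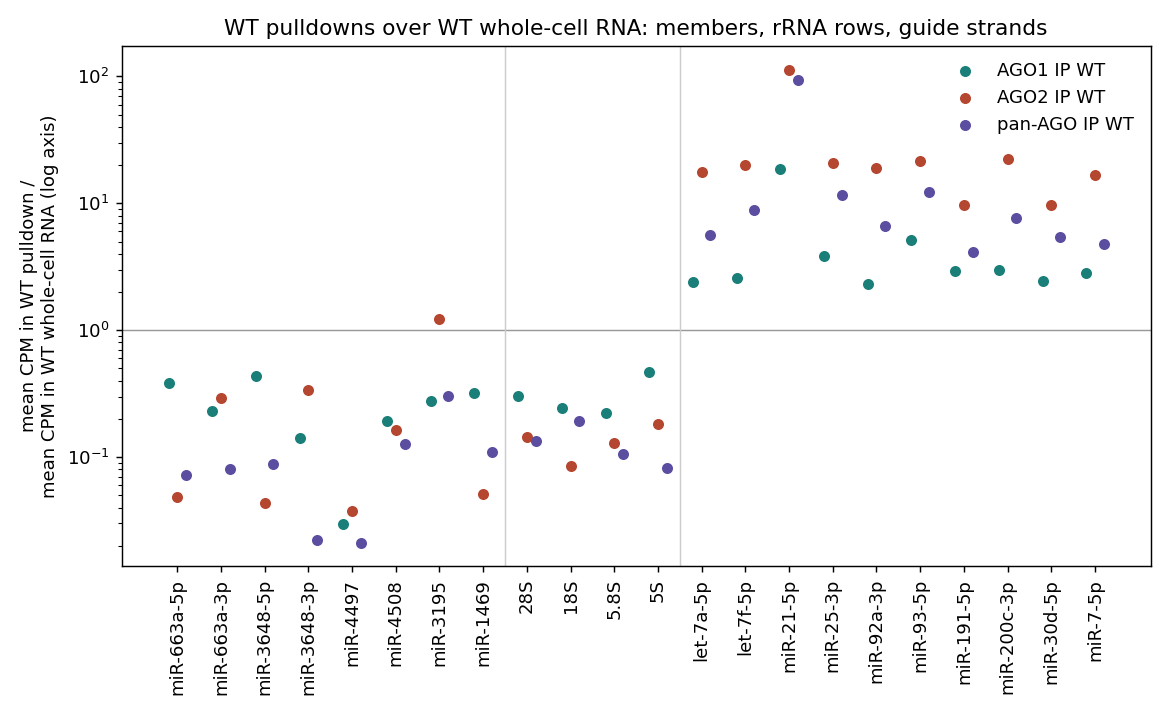
Ratio of the mean CPM in each WT pulldown to the mean CPM in WT whole-cell RNA (vertical log axis) for the 8 members, the 4 rRNA rows and 10 guide strands, separated by vertical lines; green is the AGO1 IP, red the AGO2 IP and purple the pan-AGO IP. Members and rRNA rows lie below 1 except miR-3195 in the AGO2 IP, at 1.23, and the guides lie above 1, from 2.30 to 113, with all 3 libraries of each pulldown; without replicate 1 of the AGO1 IP, miR-92a-3p is at 0.972.

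In the AGO2 IP, 6 of the 7 tested members were higher in AGO2 KO than in WT cells. miR-663a-5p was at 8.95, 7.26 and 5.93 CPM in WT and at 38.9, 39.2 and 86.5 in the KO, a log2 fold change of 2.89 (SE 0.875, edgeR quasi-likelihood adjusted p = 0.00669). miR-3648-5p was at 2.83, 1.27 and 2.61 CPM against 13.1, 15.9 and 29.8 (3.12, SE 0.830, adjusted p = 0.00294). miR-3648-3p was at 21.6, 17.9 and 22.4 CPM against 260, 123 and 137 (3.07, SE 0.705, adjusted p = 0.00113). In each of these rows every KO library exceeded every WT library.

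miR-1469 rose from 6.01, 5.76 and 9.37 CPM to 34.7, 40.4 and 46.6 (log2 fold change 2.52, SE 0.748), miR-4497 rose from 1.06, 1.27 and 1.19 to 4.17, 5.12 and 4.82 (1.98, SE 0.542) and miR-4508 rose from 4.60, 3.69 and 4.39 to 12.5, 14.5 and 23.0 (1.98, SE 0.518), with edgeR adjusted p of 0.00584, 0.00346 and 0.00267. The call of miR-4497 was lost with DESeq2 (1.25, adjusted p = 0.0771). The WT and KO libraries did not overlap in these rows either. miR-663a-3p, with 15 counts over the WT and 44 over the KO libraries, did not pass the filter on low counts; with no filter it was called higher (2.12, adjusted p = 0.00178 by edgeR). Over all 2352 rows tested, 67.3% were called, 47.7% higher in the KO and 19.6% lower. The median log2 fold change was 1.14, against 2.52 over the 7 tested members. With Ensembl transcripts included, 30020 of 32503 rows were called, 29363 higher and 657 lower. The median was then 2.17, so most counted RNAs shared the members' direction.

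The rRNA rows moved with them. The log2 fold change was 2.26 for 28S (SE 0.432), 2.29 for 18S (SE 0.406), 1.97 for 5.8S (SE 0.573) and 3.51 for 5S (SE 0.979), all called higher in the KO. The 10 guides were all called lower, with log2 fold changes of -3.13 to -1.39 (5 to 9 called with single libraries left out, and 1 against the miRNA total). Mature miRNA rows took 81.8% of counts in the WT and 19.3% in the KO pulldown. Their share was 3.69% in whole-cell RNA of AGO2 KO cells, so the KO pulldown still held a larger share of miRNAs than its cells did. With the AGO1 antibody the KO pulldown held 1.70%, below the 2.64% of whole-cell RNA from that line. The AGO2 KO pulldown is therefore not a background free of miRNAs, and what retained them was not tested. The same fit was also run with the rRNA total as the library size. On that scale 5 of the 6 tested members had differences of -0.26 to 0.91 and were not called, and miR-4497 was not tested. Of 2754 rows on that scale 43.1% were called, 0.944% higher and 42.2% lower.

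miR-3195 did not follow the others. It was at 281, 166 and 154 CPM in the WT AGO2 IP and at 166, 213 and 133 in the KO, overlapping groups with a log2 fold change of -0.23 (SE 0.754, edgeR adjusted p = 0.790). Against the rRNA total it fell by 2.49 on the log2 scale (SE 0.694, adjusted p = 0.00297), as 42.2% of rows did, where the guides had -5.41 to -3.66. Against the total of mature miRNA rows it was called higher in the KO instead (1.93, adjusted p = 0.00225 by edgeR). On that scale 2669 of 3252 rows were called higher and 27 lower, and the median over all rows was 3.33, above the value of miR-3195. The direction of miR-3195 thus depends on the scale.

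In the AGO1 IP none of the 7 tested members was called between AGO1 KO and WT (edgeR adjusted p from 0.103 to 0.972; 1 member at an unadjusted p under 0.05; DESeq2 called 1, miR-4508). Of 2352 rows 19.1% were called, 0.213% higher and 18.9% lower. miR-663a-5p was at 154, 14.3 and 6.996 CPM in WT and at 232, 132 and 84.2 in the KO (log2 fold change 1.35, SE 0.826). Replicate 1 of WT lay among the KO values while the other WT libraries lay below them. The log2 fold changes of the 7 members ran from 0.14 for miR-3195 to 1.51 for miR-3648-5p with a median of 0.98, against a median of -0.20 over all rows. The rRNA rows had 0.32 to 0.97 and were not called, and all 10 guides fell, with -7.78 to -3.45.

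The result depended on the scale and on single libraries. Against the total of mature miRNA rows, which took 17.4% of counts in the WT and 1.70% in the KO pulldown, all 8 members were called higher in the KO, with log2 fold changes of 3.91 to 5.26. On that scale 88.1% of 3252 rows were called, 83.8% higher and 4.27% lower, and the median over all rows was 3.13, so most rows shared that direction. The rRNA rows were at 3.74 to 4.16, and 9 of the 10 guides were called lower.

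Replicate numbers were taken to pair the AGO1 IP libraries, from how the libraries deviated in these same data. WT replicate 2 deviated most like KO replicate 3, and its correlation with KO replicate 2 was 0.117. With that pairing in the fit, 4 of the 6 tested members were called higher in the KO, beside 2.04% of 1325 rows higher and 29.1% lower, 31.2% in all: miR-663a-5p (2.47, SE 0.585, adjusted p = 0.000109), miR-3648-5p (2.54, SE 0.578, adjusted p = 5.29e-05), miR-3648-3p (1.36, adjusted p = 0.0232) and miR-4508 (1.29, adjusted p = 0.0318), by edgeR. Without replicate 1 of WT, 4 of 8 were called higher, beside 2.39% of 2511 rows higher and 13.8% lower, 16.2% in all, with miR-663a-5p at 3.82, miR-3648-5p at 3.96, miR-3648-3p at 2.47 and miR-3195 at 2.38. That library held miR-663a-5p at 442 counts, against 42 and 31 in the others, and its mature miRNA share was 27.2%, against 13.6% and 11.5%. With the rRNA total as library size 0 of 6 members were called, and 0 had an unadjusted p under 0.05 by edgeR, where 19.9% of 2754 rows were called, 0.0363% higher and 19.9% lower. In WT the pulldown held 0.381, 0.436, 0.142 and 0.192 times the whole-cell mean CPM of miR-663a-5p, miR-3648-5p, miR-3648-3p and miR-4508. In AGO1 KO cells these ratios were 0.373, 0.468, 0.445 and 0.362. Without replicate 1 of WT the WT ratios were 0.0693, 0.0799, 0.0505 and 0.173. Whether the pulldown changes differ from those of whole-cell RNA was not tested.

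In the pan-AGO IP the log2 fold changes of all 7 tested members were negative in both knockouts, and both comparisons share the WT libraries. miR-3195 was at 22.7, 26.5 and 99.6 CPM in WT cells, at 2.42, 7.95 and 13.4 after loss of AGO1 and AGO2, and at 0.561, 0.892 and 0.340 after loss of AGO3 as well. The 3 groups did not overlap. The log2 fold change against WT was -2.66 in AGO1/2 KO (SE 0.823, edgeR adjusted p = 0.0306) and -6.35 in AGO1/2/3 KO (SE 1.09, adjusted p = 5.36e-05). The latter rests on 929 counts over the WT and 4 over the KO libraries.

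In AGO1/2 KO cells miR-3195 was the only member called of the 7 tested, where 14.5% of 2352 rows were called, 12.8% lower and 1.70% higher. The other 6 had log2 fold changes of -0.55 to -1.71. The rRNA rows lay between -0.23 and -0.62, uncalled. All 10 guides had negative log2 fold changes, from -3.31 to -0.995, with a median of -1.56, against -1.51 over the 7 members. The fit called 4 of the guides lower (1 to 4 with single libraries left out). It called 2 of them against the miRNA total, and 8 and 9 with the 2 groups alone and the replicate block. The call of miR-3195 was lost without replicate 3 of WT (-1.65, adjusted p = 0.297), without replicate 1 of the KO (-2.23, adjusted p = 0.153) and without its replicate 2 (-2.67, adjusted p = 0.103), by edgeR. Against the rRNA total it was -2.10 (SE 0.708, adjusted p = 0.0694), and no member was called on that scale, where 5.37% of rows were, 1.74% higher and 3.63% lower, and 1 member had an unadjusted p under 0.05 by edgeR. The call of miR-3195 was lost against the total of mature miRNA rows too (-1.57, adjusted p = 0.0704 by edgeR). On that scale 328 of 3252 rows were called higher and 60 lower.

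In AGO1/2/3 KO cells 5 of the 7 tested members were called lower, where 39.3% of rows were called, 28.8% lower and 10.5% higher. The median over all rows was -0.49, against -2.49 over the members. miR-663a-5p was at 3.99, 4.91 and 24.6 CPM in WT and at 0, 0 and 1.02 in the KO (log2 fold change -4.69, SE 1.196, adjusted p = 0.00274 by edgeR). Its 213 WT counts stood against 3 KO counts, a ratio of rates of 29.03 with an exact 95% counting interval of 9.80 to 142. miR-3648-5p had 86 counts against 2, a ratio of 17.6 (4.72 to 148), and fell too (-3.88, adjusted p = 0.0147 by edgeR). The intervals cover counting error only. These ratios include replicate 3 of WT, which held 167 of the 213 counts of miR-663a-5p and 67 of the 86 of miR-3648-5p.

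miR-4508 fell by 2.49 (adjusted p = 0.0126 by edgeR) on 59 counts against 4, and miR-1469 fell by 2.40 (adjusted p = 0.0200) on 276 against 21. miR-3648-3p and miR-4497 had -2.19 and -2.06, not called, on 25 counts against 2, a ratio of 5.11 (1.27 to 44.5), and on 12 against 1, a ratio of 4.91 (0.726 to 210). miR-663a-3p had 3 counts in WT and 4 in the KO and did not pass the filter on low counts. With no filter it was at 1.59 (adjusted p = 0.385), and against the total of mature miRNA rows it was called higher (3.94, SE 1.25, adjusted p = 0.00721 by edgeR), where 64.4% of rows were called, 58.3% higher and 6.12% lower.

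The 28S row fell by 1.70, while 5.8S and 5S, at -1.34 and -0.998, were not called. The call of 28S was lost with the replicate block (-1.68, adjusted p = 0.0557 by edgeR). The 18S row was at -1.02 and called, but its call was lost with DESeq2 (-0.698, adjusted p = 0.134), relative log expression, no filter, all rows, the 2 groups alone, the replicate block and each of 4 single libraries left out, where it had -1.05 to -0.698 and adjusted p of 0.0799 to 0.248. All 10 guides were called lower, with -8.97 to -1.57, and 9 or 10 of them were called with single libraries left out.

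Against the rRNA total, 2 of 6 tested members were called lower in AGO1/2/3 KO cells, beside 12.2% of rows called lower and 33.1% higher, 45.4% in all. They were miR-3195, lower by 4.87 (SE 0.956, adjusted p = 0.000137), and miR-663a-5p, lower by 3.13 (SE 1.099, adjusted p = 0.0204), by edgeR. Without replicate 3 of WT, which held 167 of the 213 WT counts of miR-663a-5p and 675 of the 929 of miR-3195, the calls of miR-3195 (-5.34, adjusted p = 0.000406) and miR-663a-5p (-3.35, adjusted p = 0.0380) were kept on the all-RNA scale. Those of miR-3648-5p (-2.59), miR-4508 (-1.82) and miR-1469 (-1.70) were lost, with adjusted p of 0.153, 0.106 and 0.141 by edgeR. Leaving out single KO libraries ended the call of miR-1469 without replicate 1 (-1.98), of miR-3648-5p and miR-4508 without replicate 2 (-3.35 and -1.95) and of miR-3648-5p without replicate 3 (-4.06). miR-3195 was therefore called lower in AGO1/2/3 KO with and without that library and on the all-RNA, rRNA and miRNA scales, with -3.81 on the last; miR-663a-5p was not called on the miRNA scale (-1.91, adjusted p = 0.118).

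**Figure D4:**
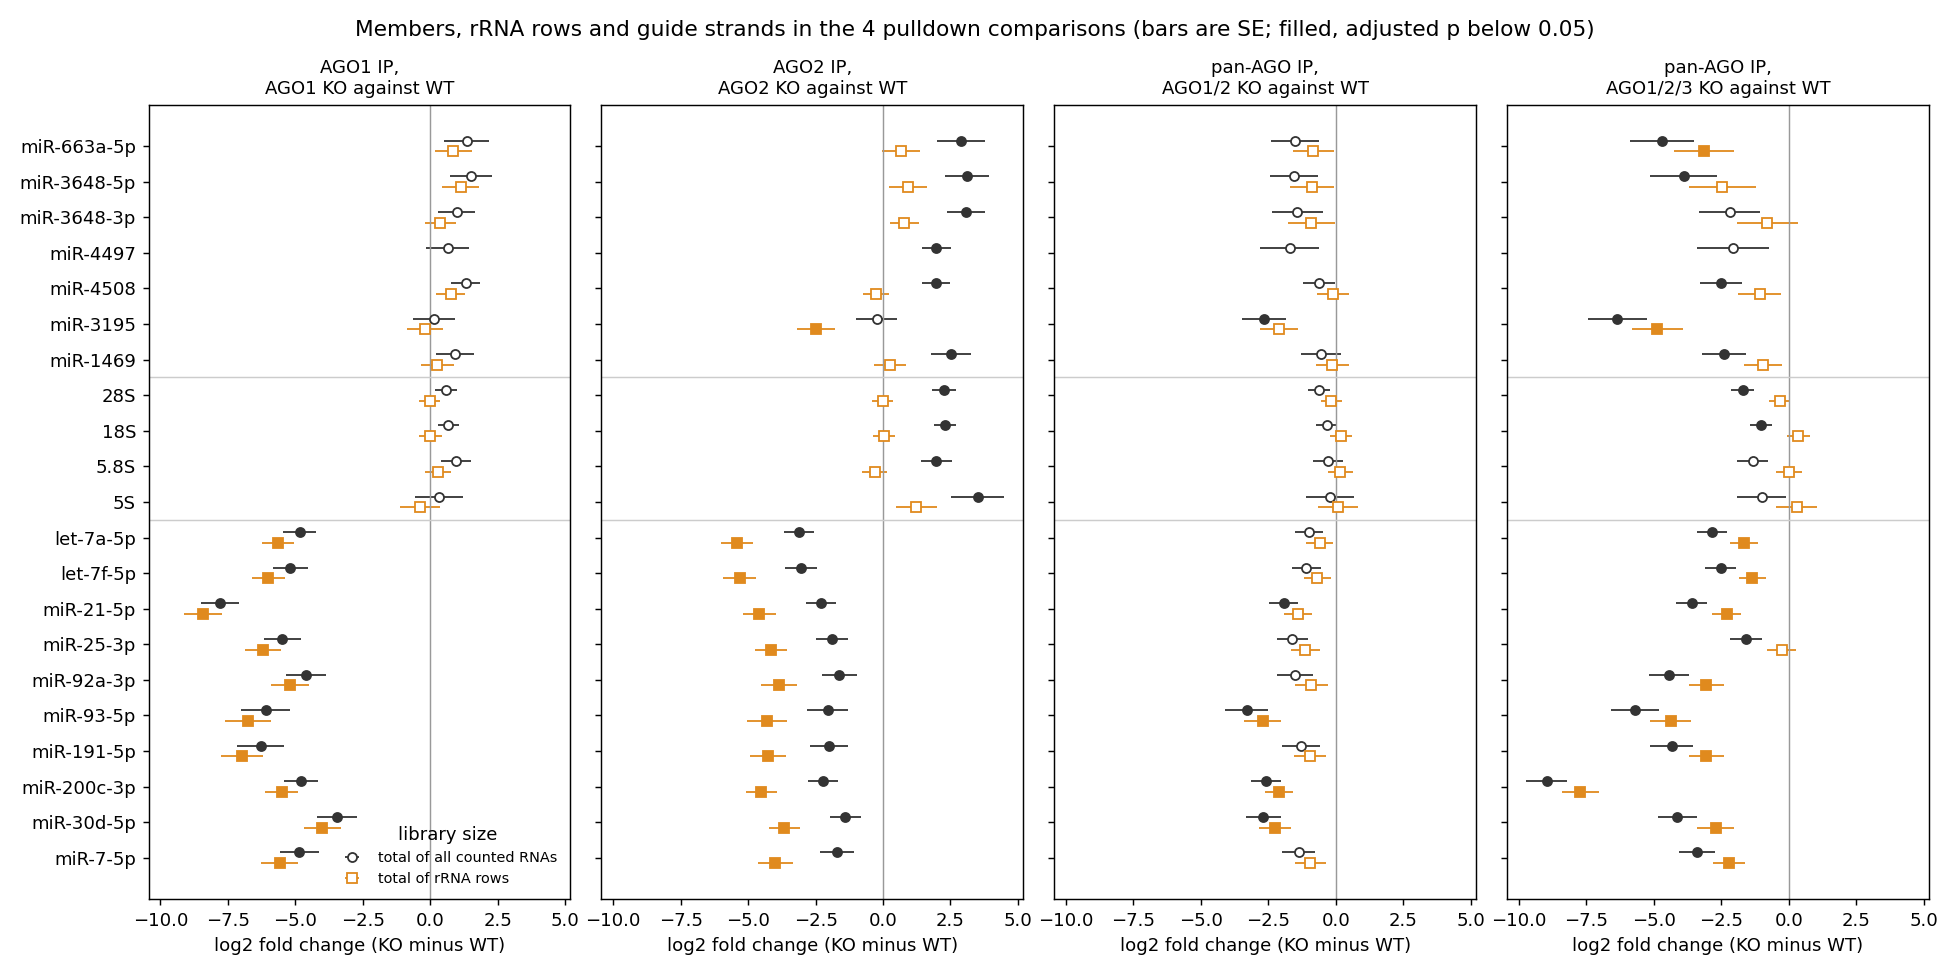
Log2 fold change, KO minus WT, of the 7 tested members, the 4 rRNA rows and 10 guide strands in the 4 pulldown comparisons, with SE bars; circles take the total of all counted RNAs as library size, squares the total of the rRNA rows (miR-4497 was not tested on it), and filled marks have an adjusted p below 0.05. In the AGO2 IP, members other than miR-3195 lie near the rRNA rows. miR-3195 lies below them on both scales, at -0.23 on the all-RNA scale and -2.49 on the rRNA scale. The rRNA total moves all rows by similar amounts and puts 28S at -0.0053 and 18S at 0.029, so the scales are not separate evidence.

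Other rows linked to rRNA genes were read alongside. Of the 7 listed, miR-3687 had no row; miR-6724-5p, whose hairpins lie 582 to 601 bases from 45S genes except for a copy 4246 bases from an 18S pseudogene, and the 3p arms of miR-10396a and miR-10396b passed the filter. All 3 were called higher in AGO2 KO than in WT in the AGO2 IP, by 1.54, 1.81 and 1.75 on the log2 scale, and none was called on the rRNA scale (-0.70, -0.40 and -0.47) or with DESeq2 (0.803, 1.07 and 0.969). In the pan-AGO IP of AGO1/2/3 KO cells miR-10396b-3p fell by 3.13 (adjusted p = 0.0333), with -1.57 and no call on the rRNA scale and -1.02 and no call without replicate 3 of WT (adjusted p = 0.594 by edgeR), whereas miR-6724-5p rose by 2.26 (SE 0.542, adjusted p = 0.00166 by edgeR) and by 3.58 on the rRNA scale.

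The 63 other miRNA rows that were as rich in G and C had 46 tested members. In the AGO2 IP 34 of them were called higher and 2 lower in the KO, with a median log2 fold change of 1.68, against 762 higher and 422 lower of 1780 mature miRNA rows with a median of 0.77. On the rRNA scale 0 were called higher and 10 lower of 44, with a median of -0.59, against -1.20 over 2199 mature miRNA rows. In the AGO1 IP 0 of the 46 were called higher and 3 lower, against 5 higher and 369 lower of the 1780 mature miRNA rows. In the pan-AGO IP of AGO1/2 KO cells 0 were called higher and 5 lower, against 33 and 219 of the 1780. For AGO1/2/3 KO cells it was 5 higher and 14 lower, against 213 and 447. Binned by G and C content, the median in the AGO2 IP lay between 0.48 and 0.82 in the 5 bins below 80% and at 1.73 among the 57 rows at 80% or more, members included.

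Set against rRNA in every group, the members did not form a fixed fraction of it. On the rRNA scale the 8 rows summed to 1757 ± 485 in WT whole-cell RNA, 3793 ± 459 after loss of AGO1 and 2717 ± 469 after loss of AGO2 (SD, n = 3 each). The double AGO knockout had 1668 ± 50.1 and the triple knockout 2101 ± 1035. They summed to 1770 ± 2131 in the WT AGO1 IP, or 539.9 without its replicate 1, and 2581 ± 1037 in its KO, and to 5298 ± 1039 in the WT AGO2 IP and 2211 ± 185 in its KO. The high value of the WT AGO2 IP comes with miR-3195, which held 5122 counts over the 3 libraries, where the 8 rows together held 2768, 1773 and 1687. In the pan-AGO IP they summed to 1472 ± 863 in WT, or 999 without its replicate 3, 675 ± 161 without AGO1 and AGO2, and 283 ± 166 without AGO3 as well.

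**Figure D5:**
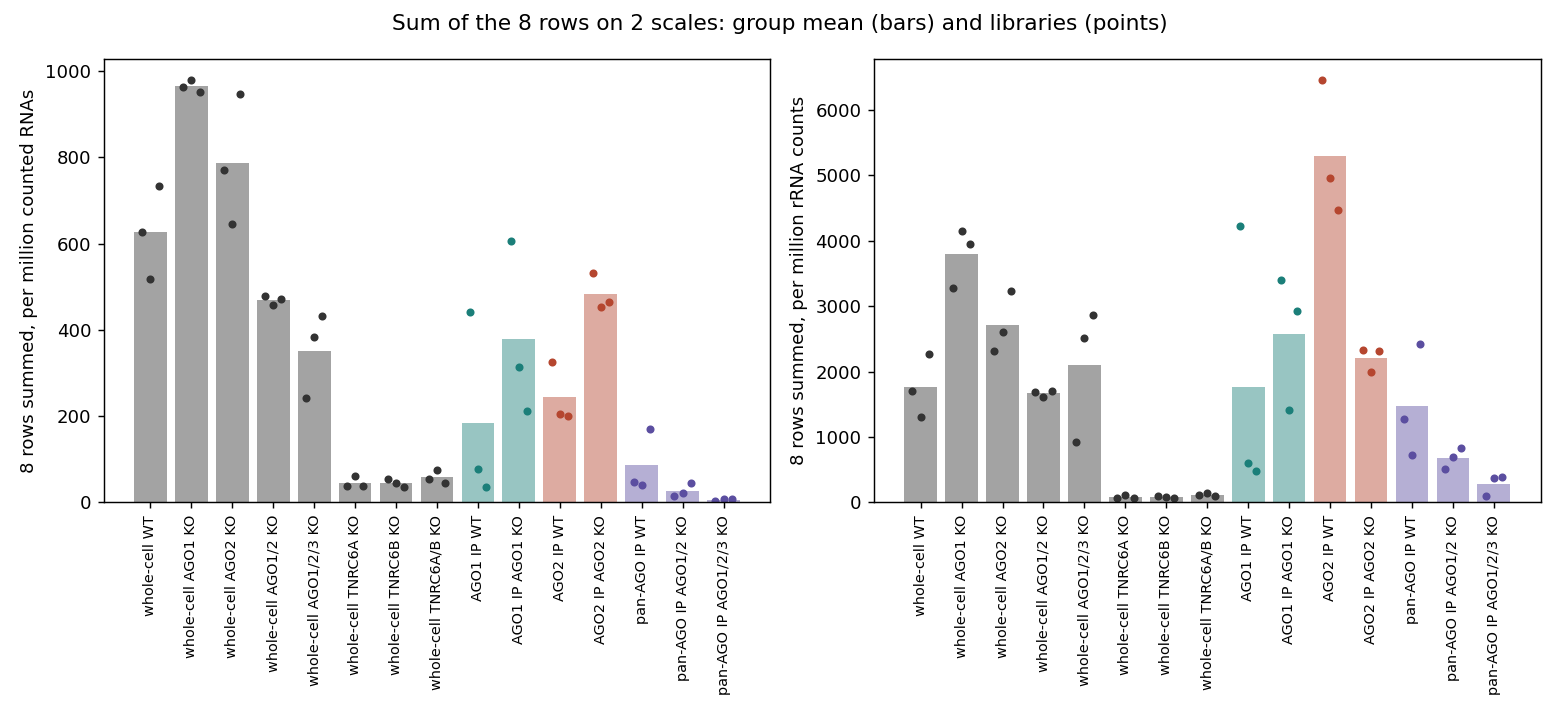
Sum of the 8 rows in each of the 15 groups, in CPM of all counted RNAs (left) and in counts per 1000000 of the rRNA rows (right); bars are group means, points are libraries, and colours are as for the levels by library. The TNRC6 knockouts are low on both scales, at 44.4 to 58.6 on the left and 82.7 to 114 on the right, and the WT AGO2 IP is highest on the right, at 5298.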

How the data were processed

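Small RNA of whole cells and of AGO pulldowns was prepared with Illumina TruSeq small RNA kits, per the labels' protocols. The deposited files give whole-number read counts per RNA and library, made by the authors; cutadapt 1.16, Bowtie 1.1.2 and build hg38 are named per the submitters' processing notes, and the sources used here do not give the handling of reads with several matches. Entries of sequence variants were added to their parent row; the 8 members had 0 of them. The 4 pulldown comparisons were fitted with edgeR 4.0.16 (R 4.3.3; quasi-likelihood test) on all 21 pulldown libraries and all rows other than Ensembl transcripts, with the total of all counted RNAs as library size, filterByExpr (minimum count 10, minimum total 15) and Benjamini-Hochberg adjustment at 0.05, and checked on simulated data. This total puts miRNA and rRNA rows on a common scale. DESeq2 1.42.0, other library sizes, filters and left-out libraries were alternatives. Members, lists and tests were chosen with earlier results of these data known. The named rows are the members, 4 rRNA rows, 10 guides, and the rDNA-linked and GC-rich lists. For each member they also include the 3 rows of at least 10 mean CPM with the highest r over 15 group means of log2(CPM + 1). Members and Ensembl transcripts were left out of that ranking. In the AGO1 IP, deviations of same-numbered libraries had correlations of 0.459, 0.117 and 0.556, so their numbers were taken to pair them. For WT replicate 2 the closest KO library was replicate 3, so the pairing of that number is uncertain. Sequences and positions are from RefSeq GRCh38.p14 and overlaps from GENCODE GRCh38. No replicate pair differed by as little as sampling noise (chi-square per degree of freedom at least 7.54).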

Additional observations from a re-analysis of the deposited data

How the results depend on the processing

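Counts of called rows were within 1.5 times the reported 450, 1583, 340 and 925 (AGO1, AGO2, pan-AGO AGO1/2 KO and pan-AGO AGO1/2/3 KO comparisons) except as follows. The total of mature miRNA rows gave 2864, 2696 and 2095 in the AGO1, AGO2 and AGO1/2/3 KO comparisons, and 328 of 388 called rows were then higher in AGO1/2 KO. The rRNA total gave 148 in AGO1/2 KO, and called 26 higher and 1161 lower in the AGO2 IP and 912 higher and 337 lower in AGO1/2/3 KO, against 1123 and 460, and 247 and 678, as reported. TMM on mature miRNA rows gave 500 higher and 660 lower in the AGO2 IP, relative log expression 603 and 697, and DESeq2 576 and 691; in AGO1/2/3 KO these 3 settings gave 234 and 470, 378 and 629, and 377 and 623. Testing all rows, Ensembl transcripts included, gave 30020, 1015 and 4874 in the last 3 comparisons, over 32503 rows. Of these calls 29363, 605 and 3108 were higher in the KO. Leaving out single libraries gave 391 to 498, 1328 to 1472, 93 to 344 and 665 to 940; the 93 was without replicate 3 of WT, and AGO1/2 KO gave 108 without its replicate 1 and 126 without its replicate 2. The median of all rows moved from 1.14 to 3.33 (miRNA total) or -1.06 (rRNA total) in the AGO2 IP.

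Of the log2 fold changes of named rows under the alternatives, 563 kept their direction and side of the threshold, 26 passed it only then, 37 no longer passed it and 42 changed sign, as follows. With the rRNA total, miR-3195 was at -0.18, 28S at -0.022 and 5S at -0.37 in the AGO1 IP; miR-4508 at -0.26, 28S at -0.0053 and 5.8S at -0.31 in the AGO2 IP; 18S, 5.8S and 5S at 0.18, 0.17 and 0.087 in AGO1/2 KO and at 0.36, 0.015 and 0.30 in AGO1/2/3 KO. With the total of mature miRNA rows, miR-3195 was at 1.93 in the AGO2 IP; miR-4508, miR-1469, 28S, 18S, 5.8S and 5S at 0.56, 0.63, 0.41, 0.70, 0.80 and 0.79 in AGO1/2 KO; and miR-3648-3p, miR-4497, miR-4508, miR-1469, 28S, 18S, 5.8S and 5S at 0.29, 0.31, 0.19, 0.50, 0.87, 1.76, 1.162 and 1.30 in AGO1/2/3 KO. Leaving out single libraries, the AGO1 IP gave -0.39 to 2.38 for miR-3195, -0.12 to 1.83 for miR-1469 and -1.98 to 2.35 for 5S, and the AGO2 IP gave -0.42 to 0.093 for miR-3195. AGO1/2 KO gave -1.13 to 0.028 for miR-4508, -1.18 to 0.16 for miR-1469, -0.83 to 0.33 for 5.8S and -1.17 to 0.19 for 5S.

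The replicate block called 413, 1611, 395 and 708 rows in the 4 comparisons, against 341, 1617, 342 and 781 in the same groups without it. Outside the AGO1 IP same-numbered libraries share only a number, with correlations of -0.21 to 0.14, and the block changed no member's call there against the same groups without it. Replicates are labelled biological, with nothing on separate cultures, so p-values measure only the spread between these samples. In simulated data 2% to 3% of 2-fold and 34% to 56% of 4-fold changes were recovered in the 4 comparisons, so smaller differences of members were mostly not detectable. Intervals on pooled counts cover counting error only. The cause of the changes between scales was not tested. Member ratios and sums without the pair of libraries that stood apart, and whole-cell positions on the rRNA scale, were alternatives chosen after seeing the data.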
